A study of Mus musculus with 30 samples.

Results

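The genes described here are 37 interferon-stimulated genes, taken from a list of gene symbols. All 37 were found among the 38031 genes to which the deposited transcript counts were summed, and all 37 were among the 14346 genes that passed the filter on low counts and were tested. They lie on 14 chromosomes, with 6 on chromosome 5 (the OAS family) and 4 on each of chromosomes 11, 16 and 19, the last being 4 Ifit genes. The RNA came from cultured primary microglia, the brain's own macrophages, taken from C57BL/6 mice at postnatal day 21. The mice were wild type or carried Lrrk2-/- (here called knockout or KO). Lrrk2 is a multidomain protein kinase whose activating variants cause inherited Parkinson's disease. Cultures of each genotype were left as controls, given lipopolysaccharide (LPS, a bacterial outer membrane component) or exposed to α-synuclein fibrils, an aggregated form of the main Lewy body protein. This gave 30 libraries, namely 5 wild-type controls (replicates 1, 2, 3, 5 and 6), 6 wild-type LPS, 4 wild-type fibril, 6 KO control, 4 KO LPS and 5 KO fibril libraries. The sources used here do not give doses, exposure times, sex or how the knockout was made.

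Interferon-stimulated genes are the effector genes of the interferon system. Cells that sense viral RNA, DNA or bacterial LPS make interferon-β, the product of Ifnb1, which binds the receptor formed by Ifnar1 and Ifnar2 on the same and neighbouring cells and, through the kinases Jak1 and Tyk2, forms a complex with Stat2 and Irf9 that binds the interferon-stimulated response element (ISRE) of target promoters. The targets include proteins that block viral translation and replication, sensors that detect more virus, and brakes such as Usp18, and microglia with high levels of these genes have been described in ageing, infection and neurodegeneration.

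Promoters were available for 27 of the 37 genes in RefSeq (GRCm38.p6), each running from 250 bases before to 50 bases after the start of the gene. The core of the ISRE (GAAA, any 2 bases, GAAA), searched on both strands, was present in 18 of the 27 (66.7%), against 1079 of all 27025 genes with a promoter there (3.99%). The gamma-activated motif (TTC, any 3 bases, GAA), which reads the same on both strands, was present in 7 of the 27 (25.9%), against 2582 of the 27025 (9.55%). The letters are a description of the window and not evidence of binding. The 250 bases before the start are shown for the 4 genes that hold the core and varied most between libraries of a group, so that the element can be seen beside the values that follow. They are Ifit3b at chr19:34607707-34607956 (plus strand), Rsad2 at chr12:26456453-26456702 (minus strand), Ifit3 at chr19:34583279-34583528 (plus strand) and Oas3 at chr5:120777660-120777909 (minus strand). Capitals mark the core, which reads TTTC, any 2 bases, TTTC where it lies on the other strand.
Ifit3b: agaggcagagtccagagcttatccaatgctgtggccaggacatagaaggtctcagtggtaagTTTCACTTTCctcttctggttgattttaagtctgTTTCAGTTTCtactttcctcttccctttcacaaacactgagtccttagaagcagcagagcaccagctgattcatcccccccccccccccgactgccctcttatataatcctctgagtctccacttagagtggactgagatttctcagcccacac
Rsad2: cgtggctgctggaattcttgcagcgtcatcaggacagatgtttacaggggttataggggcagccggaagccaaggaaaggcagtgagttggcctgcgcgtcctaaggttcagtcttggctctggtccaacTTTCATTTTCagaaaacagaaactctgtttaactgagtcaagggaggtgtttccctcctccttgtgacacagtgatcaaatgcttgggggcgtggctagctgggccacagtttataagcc
Ifit3: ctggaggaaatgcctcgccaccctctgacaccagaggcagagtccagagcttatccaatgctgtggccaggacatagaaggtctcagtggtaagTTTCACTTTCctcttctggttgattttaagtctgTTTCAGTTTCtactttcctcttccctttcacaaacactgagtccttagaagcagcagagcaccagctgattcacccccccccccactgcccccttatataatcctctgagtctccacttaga
Oas3: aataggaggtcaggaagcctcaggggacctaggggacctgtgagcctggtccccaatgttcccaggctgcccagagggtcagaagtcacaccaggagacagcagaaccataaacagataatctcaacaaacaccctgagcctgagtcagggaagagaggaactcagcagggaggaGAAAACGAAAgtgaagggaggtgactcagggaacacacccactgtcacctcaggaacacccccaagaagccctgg

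In these windows Ifit3b and Ifit3 each held 2 copies of the core and Rsad2 and Oas3 held 1. The first base of the core lay at position -188 and -154 from the start of Ifit3b, -156 and -122 from that of Ifit3, -120 from that of Rsad2 and -75 from that of Oas3. Over the 18 genes with the core the SD of log2 CPM between libraries of a group had a median of 0.91. Over the other 9 genes with a promoter, which lacked it, the median was 1.19. The 2 small sets were not matched and were not tested against each other.

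Gene totals ran from 8936310 to 35677005 counts per library with a median of 20432234. Levels are given in CPM, the counts of a gene relative to the TMM-scaled total of its library. Differences are log2 fold changes from a single quasi-likelihood fit in edgeR over all 30 libraries, and a gene was called where its Benjamini-Hochberg adjusted p was under 0.05. These fold changes compare fitted mean counts, so the highest library of a group weighs more than in a mean of log2 CPM. The standard error (SE) given with them was derived as the absolute log2 fold change divided by the square root of the test's F statistic. Nothing in the labels says whether replicates were separate cultures or animals. The p-values reflect only how these samples spread, which may be technical. That spread was estimated for each gene over all 30 libraries, so a test also carries the spread of groups it leaves out. A gene not called is therefore no statement about the compared groups alone. With only those groups in the model, calls among the genes described here went from 0 to 23 for knockout against wild type with LPS. They went from 1 to 9 for fibrils in wild type and from 1 to 0 for fibrils in knockout. The share of all genes called is given only for the single fit above, so counts under other settings have none beside them. Lrrk2 was at 0.731 to 4.68 CPM in the 15 knockout libraries and at 6.87 to 16.7 CPM in the 15 wild-type ones, with no overlap. Of the 12 microglial markers listed, 11 were tested and were present in every library (summed level 4095 to 7165 CPM). Markers of oligodendrocytes summed to 103 to 778 CPM in KO controls and 92.3 to 104 CPM in wild-type fibril libraries, and Mog and Mobp, which define myelinating oligodendrocytes, were at 0 in 4 of 4 wild-type fibril libraries. Astrocyte markers ran from 16.3 to 297 CPM over all libraries. An earlier analysis set 7 libraries apart for RNA composition, total count or markers (KO control 1, 4 and 6, KO fibril 5, wild-type control 6, wild-type LPS 1 and 6), and calls are also given without these 7 libraries. All but KO control 1 are also at or next to an extreme of their group in the genes described here. KO control 6 and KO fibril 5 were the highest of their groups and KO control 4 the lowest. Wild-type control 6 and wild-type LPS 1 and 6 were the lowest of theirs. Apart from KO control 1 and 4, leaving these out moves knockout and wild type apart. Calls without the 7 libraries depend on that choice and are no independent support. In bulk RNA, fewer cells with an active interferon response and less of it per cell cannot be told apart.

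Libraries of the same genotype and treatment differed widely in these genes, and most widely in the knockout controls and knockout fibril cultures. The mean log2 CPM over the 37 genes was 4.98, 3.96, 5.03, 3.32, 6.12 and 7.68 in KO control replicates 1 to 6, a 20.5-fold distance between the lowest and the highest. In KO fibril replicates 1 to 5 it was 4.43, 3.94, 5.87, 6.73 and 8.11, an 18-fold distance. In KO LPS replicates it was 5.23, 5.54, 5.97 and 5.12, a 1.8-fold distance. The highest untreated knockout library was thus above every wild-type library, and the lowest was below every other library of the study. Wild-type libraries lay closer together, at 6.52, 6.05, 5.84, 6.99 and 5.60 in controls (replicates 1, 2, 3, 5 and 6), 5.86, 7.10, 6.94, 7.22, 6.88 and 5.82 with LPS, and 6.37, 6.85, 6.61 and 6.62 with fibrils. As mean ± SD this gave 6.20 ± 0.56 in wild-type controls (n = 5), 6.64 ± 0.63 with LPS (n = 6) and 6.61 ± 0.20 with fibrils (n = 4), against 5.18 ± 1.56 in KO controls (n = 6), 5.46 ± 0.38 with LPS (n = 4) and 5.82 ± 1.7 with fibrils (n = 5).

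**Figure D1:**
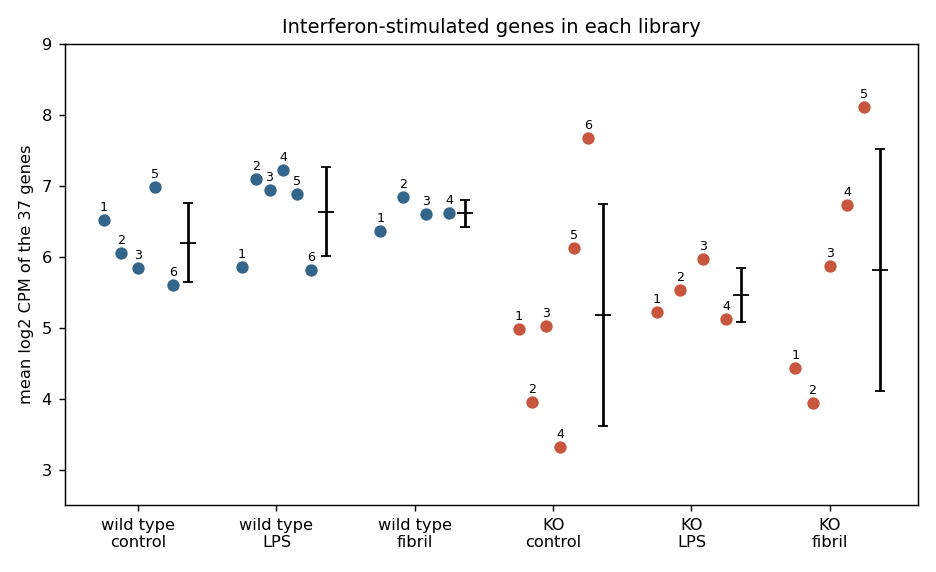
Mean log2 CPM over the 37 interferon-stimulated genes in each of the 30 libraries (vertical axis) by group (horizontal axis), each point labelled with its replicate number and each bar the mean ± SD. KO control libraries run from 3.32 to 7.68 and KO fibril libraries from 3.94 to 8.11, while wild-type fibril libraries stay between 6.37 and 6.85.

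Together the 37 genes took 0.0899% of all gene counts in KO control 4 and 1.10% in KO control 6, and 0.126% in KO fibril 2 and 1.47% in KO fibril 5. In wild-type libraries the share ran from 0.335% (control 6) to 0.868% (LPS 4). Markers of other brain cells also differed across the knockout libraries. Oligodendrocyte markers summed to 280, 386, 778, 210, 133 and 103 CPM and neuronal markers to 15.2, 13, 18.2, 8.15, 3.93 and 2.38 CPM in KO controls 1 to 6. Both were lowest in the library with the highest interferon-stimulated genes, but other sets were not. In KO control 6 endothelial and pericyte markers were the highest of the group, at 14.0 CPM. Fibroblast markers were there at 84.0 CPM (16.3 to 99.5 in the group) and astrocyte markers at 56.0 CPM (43.9 to 242). In KO fibril replicates 1 to 5 neuronal markers summed to 13.4, 7.91, 8.95, 3.4 and 3.32 CPM and oligodendrocyte markers to 110, 327, 129, 96.5 and 92.8 CPM. Their part in the differences between libraries was not tested.

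The same libraries were extreme for nearly every gene. All 37 genes had their highest value of the group in KO control 6, in KO fibril 5 and in wild-type control 5. The lowest value among KO controls was in replicate 4 for 31 genes and in replicate 2 for the other 6, and among KO fibril libraries in replicate 2 for 34 and replicate 1 for the other 3. In wild-type LPS libraries the lowest was replicate 1 for 19 genes and replicate 6 for 18. In wild-type fibril libraries replicate 2 was highest for 34 genes, and in KO LPS libraries replicate 3 was highest for 33.

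**Figure D2:**
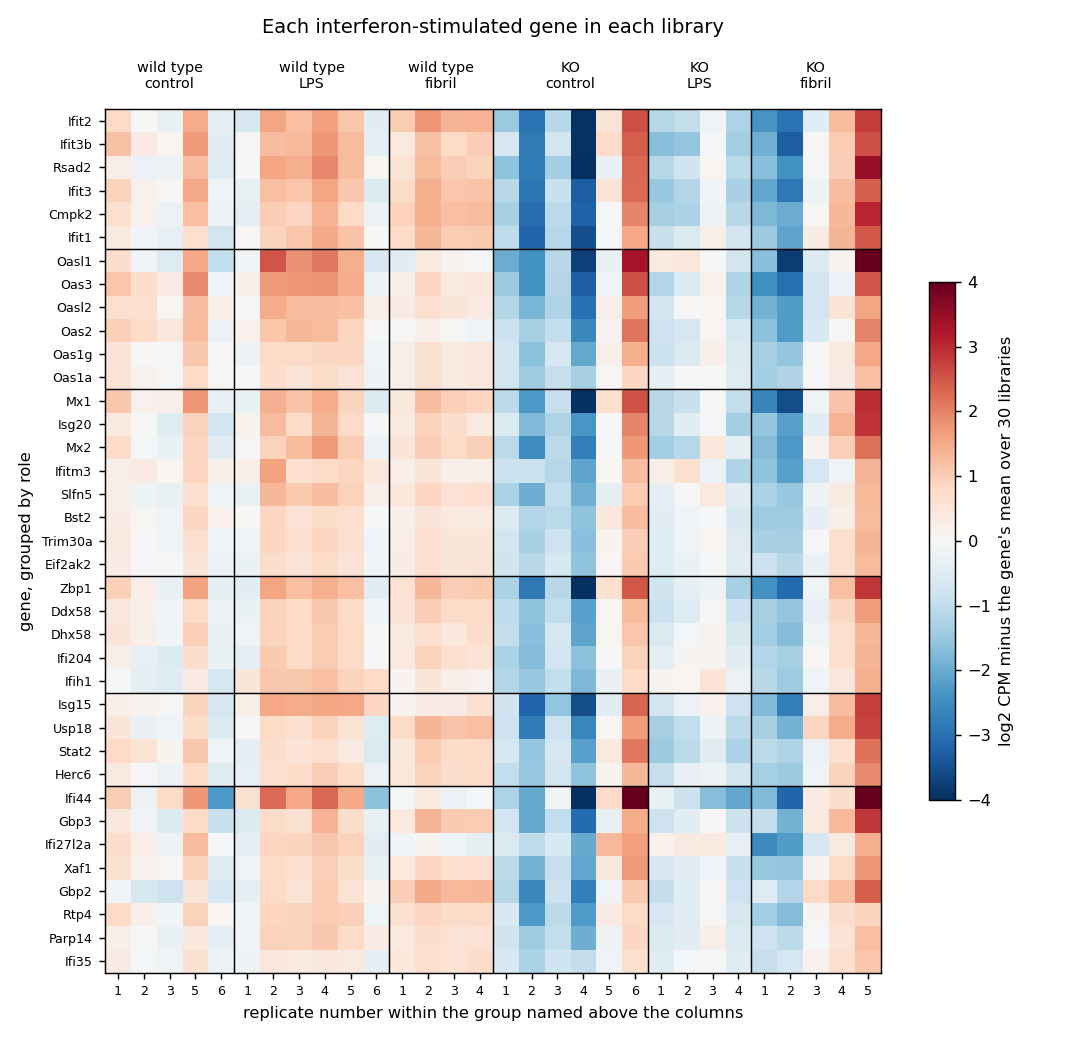
Log2 CPM of each of the 37 genes (rows, ordered by role) in each of the 30 libraries (columns, by group), as the difference from that gene's mean over all libraries, with the colour scale clipped at -4 and 4. Whole columns take 1 colour, with KO control 6 and KO fibril 5 high and KO control 4 and KO fibril 2 low over all roles.

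The IFIT proteins bind foreign RNA and block its translation, Rsad2 (viperin) makes a nucleotide that ends viral RNA chains, and Cmpk2 is its neighbour on chromosome 12 and supplies nucleotides. These 6 genes had the widest range of the roles, with role means of 2.99 to 8.85 log2 CPM in KO controls, a 58.1-fold distance. Ifit2 was at 308, 180, 147, 498 and 137 CPM in wild-type controls, at 65.0, 23.2, 82.7, 11.5, 259 and 1070 CPM in KO controls and at 35.2, 23.0, 136, 432 and 1257 CPM in KO fibril libraries. The 4 lowest KO controls thus lay under every wild-type control while replicate 6 lay above them all. Ifit2 was at 363, 614, 462 and 469 CPM in wild-type fibril libraries, at 80.9, 92.6, 161 and 75.9 CPM in KO LPS libraries and at 116 to 566 CPM (median 402) in wild-type LPS libraries. Rsad2 ran from 9.15 to 818 CPM (median 59.0) in KO controls and from 30.7 to 1866 CPM (median 159) in KO fibril libraries, and Ifit3 from 14.5 to 688 and from 19.5 to 753 CPM. Cmpk2 was at 132, 95.6, 73.1, 197 and 74.5 CPM in wild-type controls and at 24.4, 21.6, 87.1, 212 and 709 CPM in KO fibril libraries. Ifit3 and Ifit3b shared 31.7% and 27.4% of their 100-base stretches with other genes, chiefly each other, so the division of reads between them is uncertain.

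The OAS enzymes make short 2-5A chains that switch on RNase L, whereas Oasl1 lacks that activity. Oas1a was at 230, 177, 151, 275 and 163 CPM in wild-type controls, at 59.6 to 280 CPM (median 88.9) in KO controls and at 61.7, 69.5, 157, 200.0 and 365 CPM in KO fibril libraries. The KO controls reached below all wild-type controls and just above the highest of them. Oas3 ran from 7.56 to 448 CPM in KO controls and from 9.34 to 433 CPM in KO fibril libraries. Oasl1, a translational brake on Irf7, was at 1.96, 0.377, 4.4, 7.11 and 125 CPM in KO fibril libraries, where the highest value was 267-fold above the lowest on the log2 CPM scale. Oas1a shared 40.9% of its 100-base stretches with other genes, chiefly Oas1g, and Oas1g shared 36.3%, so reads of this pair may be split between them.

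Mx proteins are GTPases that trap viral particles, but Mx2 is annotated here as a polymorphic pseudogene, so a working Mx2 protein cannot be assumed. Bst2 (tetherin) holds budding virions at the cell surface, Ifitm3 blocks viral fusion, Isg20 is an RNA exonuclease and Eif2ak2 (PKR) halts translation on double-stranded RNA. Bst2 was at 338, 281, 251, 499 and 309 CPM in wild-type controls, at 89.2 to 643 CPM (median 160) in KO controls and at 102, 102, 211, 319 and 658 CPM in KO fibril libraries. Slfn5, a Schlafen family protein, was at 224, 167, 158, 300.0 and 175 CPM in wild-type controls and at 49.8 to 391 CPM (median 88.3) in KO controls. Mx1 had the wider range, 1.79 to 200.0 CPM (median 17.2) in KO controls against 27.0 to 113 CPM in wild-type controls. For all 3 genes the KO control group reached both below and above the wild-type controls.

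Among the sensors, Ddx58 (RIG-I) and Ifih1 (MDA5) detect viral RNA, Dhx58 modulates them, Zbp1 detects Z-form nucleic acid and Ifi204 binds DNA. Ifi204 was at 300.0, 202, 174, 413 and 213 CPM in wild-type controls, at 76.6 to 482 CPM (median 128) in KO controls and at 114, 101, 261, 409 and 656 CPM in KO fibril libraries. Ddx58 ran from 27.7 to 300.0 CPM in KO controls and from 109 to 218 CPM in wild-type controls, and Zbp1 from 1.29 to 154 and from 21.4 to 82.5 CPM. Again the wild-type controls lay inside the range of the knockout controls.

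Isg15 is a ubiquitin-like protein that is attached to other proteins by ligases such as Herc6 and removed by Usp18, which also binds the interferon receptor and shuts off its signal, and Stat2 carries that signal. Herc6 was at 93.6, 74.7, 64.4, 127 and 53.1 CPM in wild-type controls and at 24.2 to 185 CPM (median 40.5) in KO controls. Usp18 was at 46.3, 27.3, 29.4, 55.3 and 22.8 CPM in wild-type controls and at 4.69 to 105 CPM (median 18.5) in KO controls. Herc6 shared 20.9% of its 100-base stretches with another annotated gene, and its counts are less certain for it.

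Of the remaining genes, Gbp2 and Gbp3 are GTPases that act on membranes of intracellular pathogens, Parp14 is a mono-ADP-ribosyl transferase, Rtp4 is a receptor chaperone that restrains the antiviral response, and Xaf1 promotes cell death. Parp14 was at 579, 507, 423, 675 and 390 CPM in wild-type controls and at 132 to 900 CPM (median 277) in KO controls. Rtp4 was at 164, 111, 89.4, 183 and 101 CPM in wild-type controls and at 63.0, 19.6, 46.6, 20.0 and 121 CPM in KO controls 1 to 5 and 162 CPM in KO control 6. Ifi35 had the narrowest range of all 37 genes in KO controls, 29.5 to 110 CPM or 3.73-fold on the log2 CPM scale, against a median of 19.4-fold over the 37. Ifi44, a gene with low counts, was at 0 CPM in KO control 4 and at 51.0 CPM in KO control 6.

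The spread of the 37 genes was compared with that of all genes tested. The SD of log2 CPM between libraries of a group, pooled over the 6 groups, had a median of 1.04 over the 37 genes, from 0.53 for Ifi35 to 2.07 for Ifi44, and a median of 0.29 over all 14346 genes. Over the 9814 genes whose mean log2 CPM was 2 or more, a level that 35 of the 37 reached, the median was 0.21. Of the 37, 11 lay above the 95th percentile of all genes, which was an SD of 1.24 and which 5% of all genes exceed. Oasl1 (1.80), Mx1 (1.63), Zbp1 (1.61) and Ifit2 (1.58) were among the most variable, while Eif2ak2 (0.64) and Parp14 (0.65) were among the least.

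**Figure D3:**
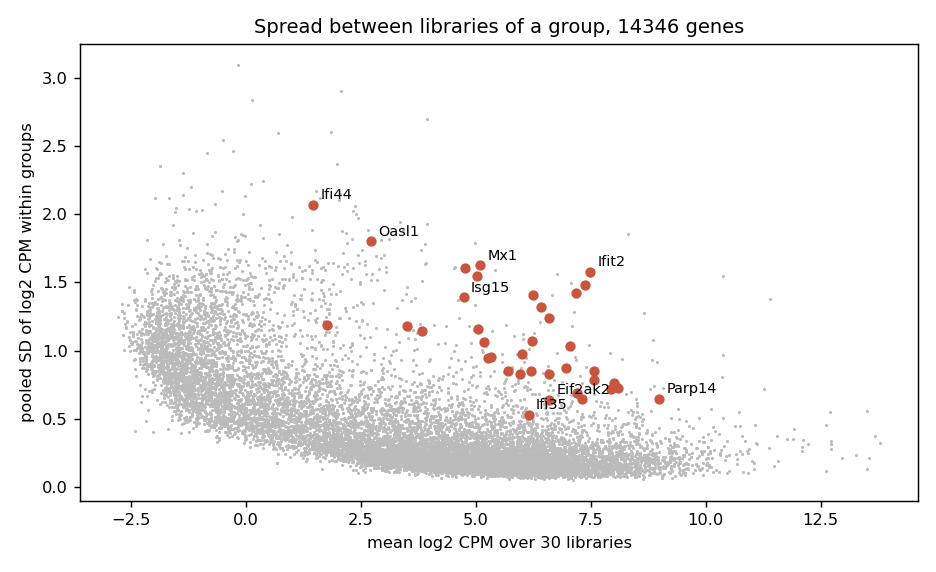
SD of log2 CPM between libraries of a group, pooled over the 6 groups (vertical axis), against the mean log2 CPM over all libraries (horizontal axis) for 14346 genes, with the 37 interferon-stimulated genes as filled points. The 37 have a median SD of 1.04, from 0.53 to 2.07, against a median of 0.29 over all genes.

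The spread was then set side by side for the genotypes. In controls the SD was larger in knockout than in wild type for 37 of 37 genes (67.4% of all genes), with a median ratio of 2.77 against 1.27 over all genes. With fibrils it was larger in knockout for 37 of 37 (87.4% of all genes), with a median ratio of 7.79 against 2.42. With LPS it was larger in knockout for 4 of 37 (46.8% of all genes), with a median ratio of 0.719 against 0.955. The 37 genes move together, so these counts amount to 1 comparison of libraries and not 37, and the difference in spread itself was not tested. The same holds for the counts of positive and negative changes below. Over all genes 45.5% to 52.9% of changes were positive, depending on the comparison.

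The 37 genes varied together from library to library. Within-group deviations of log2 CPM over the 30 libraries had a first principal component with 95.5% of the variance of the 37 genes, against 33.4% for all genes. Each gene's correlation with the mean of the other 36 had a median of 0.981, from 0.893 for Ifitm3 to 0.996 for Ifit2, and was over 0.9 for 36 genes. Over all genes the median correlation with the mean of the 37 was -0.019, and 1.18% of genes were over 0.9. These correlations describe 30 libraries that share depth and cell composition within each library. KO control and KO fibril libraries, where the mean of the 37 had the largest SD (1.56 and 1.7), weigh most in them and in the component. The size of the swing differed between genes, with a slope on the mean of the others of 0.47 for Ifi35 and 1.82 for Ifi44. Outside the 37, the genes most alike by this measure were Irf7 (0.996), the transcription factor that amplifies interferon production, then the GTPase Igtp (0.994), Ddx60 (0.991), H2-T24 (0.990), Phf11d (0.989), Iigp1 (0.987), Slfn8, Ms4a4c, Dtx3l and Phf11b (0.986 each), Ifi209 (0.985) and Gvin1 (0.984). Irf9 was at 0.940.

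Between untreated knockout and wild-type microglia the 37 genes were mostly lower in knockout, but no gene passed the test. None was called higher or lower (0.321% of all genes were called), none had an unadjusted p under 0.05, and DESeq2 and limma-voom called none. The change was negative for 34 genes and positive for 3 (Ifi44, Oasl1 and Isg15), with a median log2 fold change of -0.33 (all genes 0.005). The mean log2 CPM over the 37, in which KO control 6 weighs less, was 5.18 in KO and 6.20 in wild-type controls. Rtp4, with the values above, was at -0.85 ± 0.45 (adjusted p = 0.744) and Oas1a at -0.69 ± 0.37 (adjusted p = 0.755), the 2 smallest p of the 37. None of the 37 had groups without overlap (0.362% of all genes in each direction). The SE had a median of 0.58 over the 37 and 0.17 over all genes. The median fold change was -1.22 without KO control 6, -0.16 and -0.17 without KO control 2 and 4 and -0.12 without wild-type control 5.

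Ifnb1, the gene of interferon-β, rose with LPS in both genotypes. Ifnb1 reads numbered 122, 433, 342, 218, 314 and 144 in wild-type LPS libraries and 115, 253, 253 and 135 in KO LPS libraries, against 1, 0, 0, 0 and 0 in wild-type controls and 0, 0, 2, 0, 1 and 1 in KO controls. The LPS and control libraries did not overlap. In CPM the LPS levels were 13.2 ± 3.9 (SD, n = 6) in wild type and 9.23 ± 3.44 (SD, n = 4) in knockout, and the rise was called by edgeR in wild type (adjusted p = 1.72e-11) and in knockout (adjusted p = 5.9e-11). Between genotypes with LPS the Ifnb1 difference was -0.51 ± 0.38 (adjusted p = 0.514).

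None of the 37 genes passed the test with LPS. In wild type none was called against control (15.1% of all genes were called) and 1, Ifih1, had an unadjusted p under 0.05. The change was positive for all but Stat2, with a median of 0.34 (all genes -0.02), which was 0.60 without wild-type control 5 and 0.22 without wild-type control 6. Scaling to library size alone moved the median of all genes to -0.23 and that of the 37 to 0.13, with 29 positive and 8 negative. Ifih1 (chr2:62595798-62646255, minus strand), the RNA sensor MDA5, was at 144, 113, 104, 182 and 89.2 CPM in wild-type controls and at 203, 305, 312, 338, 271 and 247 CPM with LPS. No other gene of the 37 had groups without overlap (5.51% of all genes were wholly higher and 6.03% wholly lower). Its log2 fold change of 1.14 ± 0.41 had an adjusted p of 0.0632, and DESeq2 and limma-voom each called it, as did edgeR without KO control 6, KO fibril 2 or KO fibril 5. Parp14 followed with 0.67 ± 0.38 (adjusted p = 0.311), from 390 to 675 CPM in controls to 473 to 1068 CPM (median 890) with LPS. Without the 7 libraries 2 of the 37 were called, Ifih1 and Slfn5.

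In knockout libraries none of the 37 was called with LPS (13.7% of all genes were called) and DESeq2 and limma-voom called none. Ifi44 alone had an unadjusted p under 0.05. Among the 37, 26 were negative and 11 positive, with a median of -0.30 (all genes -0.04). The mean log2 CPM over the 37 went the other way, from 5.18 in KO controls to 5.46 with LPS. The median fold change turned to 0.45 without KO control 6, when Ifih1 was called. It was -0.48 and -0.51 without KO control 2 and 4 and -0.17 and -0.51 without KO LPS 1 and 3. Ifi44 was at 2.20, 1.41, 0.753 and 0.558 CPM with LPS and at 0 to 51.0 CPM (median 1.74) in KO controls, and its log2 fold change was -3.06 ± 1.36 (adjusted p = 0.149). Stat2, the signal carrier, was at 23.5, 30.2, 46.9 and 26.9 CPM with LPS and at 39.0, 21.9, 39.0, 14.1, 84.6 and 281 CPM in KO controls, a log2 fold change of -1.33 ± 0.65 (adjusted p = 0.201). KO control 6 alone lay far above the others in each, and no gene of the 37 had groups without overlap (4.84% of all genes were wholly higher and 5.33% wholly lower).

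**Figure D4:**
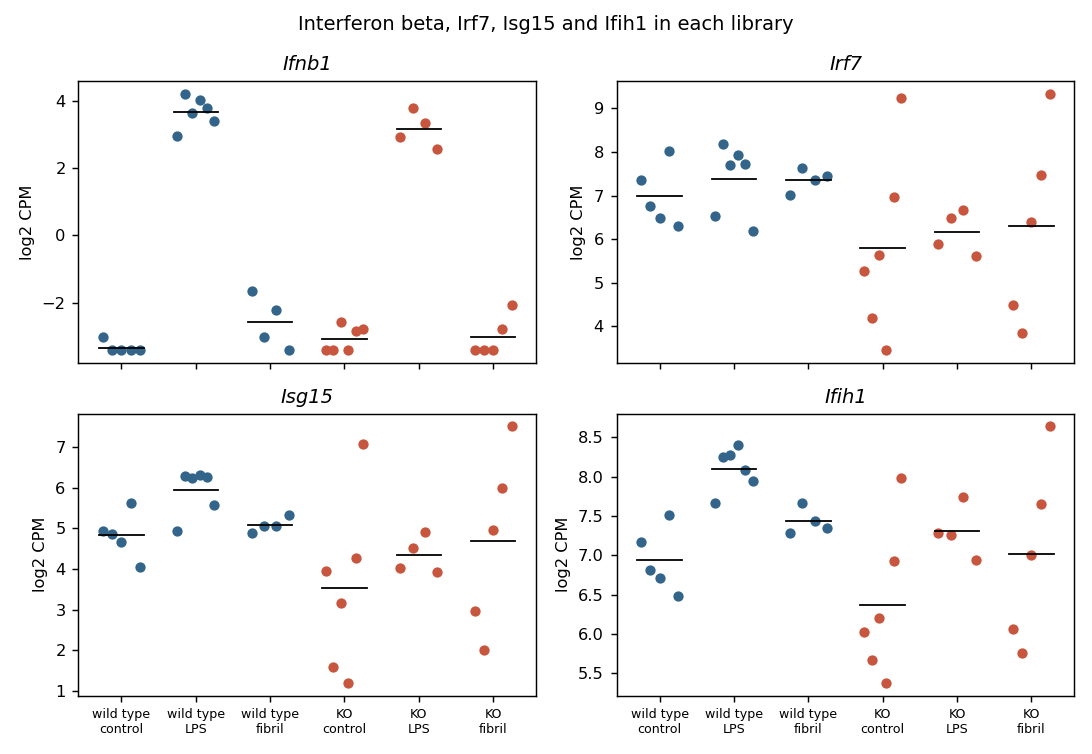
Log2 CPM of Ifnb1, Irf7, Isg15 and Ifih1 in each library by group, with a line at the mean of the group. Ifnb1 is near its floor in every group without LPS and high in all 10 LPS libraries, whereas Irf7 and Isg15 in LPS libraries overlap their controls in both genotypes.

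Irf7, which amplifies the interferon signal, was not called in any comparison. It was at 163, 108, 89.8, 261 and 79.2 CPM in wild-type controls, 72.5 to 289 CPM (median 210.0) in wild-type LPS libraries, 10.8 to 600.0 CPM (median 44.2) in KO controls and 58.9, 89.5, 101 and 48.8 CPM in KO LPS libraries. The LPS libraries overlapped their controls in both genotypes. Irf9, the DNA-binding partner of Stat2, was at 64.8 to 97.5 CPM in wild-type controls and 42.8 to 91.6 CPM (median 58.0) in KO controls, a narrower range than that of Ifi35, 29.5 to 110 CPM.

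Gbp2 was the gene of the 37 called with fibrils in each genotype, from separate libraries. The gene lies on chromosome 3 (chr3:142620602-142638008, plus strand, mm10). In wild type it rose and none fell (29.4% of all genes were called, 13.8% higher). Gbp2 was at 35.3, 24.5, 21.9, 54.3 and 24.3 CPM in controls and at 77.3, 110.0, 95.1 and 96.4 CPM with fibrils, with no overlap. Its log2 fold change was 1.56 ± 0.58 (adjusted p = 0.0455), a call that was lost in 16 of 41 alternatives, among them leaving out wild-type control 1, 2, 3 or 6, any of the 4 wild-type fibril libraries, KO LPS 2, 3 or 4, or wild-type LPS 2, 3 or 5 (adjusted p up to 0.098). Of the 37, 30 were positive and 7 negative, with a median of 0.36 (all genes -0.05), or 0.24 without wild-type control 6. With library size as the only scaling 24 were positive and 13 negative, with a median of 0.16 (all genes -0.25). Ifit1 and Usp18 also had fibril libraries wholly above the controls (16.4% of all genes did, and 13.4% lay wholly below). Ifit1 was at 57.6 to 155 CPM in controls and 164, 243, 199 and 201 CPM with fibrils, and Usp18 at 22.8 to 55.3 and 56.7, 85.2, 72.5 and 75.5 CPM (log2 fold change 1.00 ± 0.70, adjusted p = 0.291). Astrocyte markers summed to 16.3 to 23.5 CPM in these fibril libraries and 23.3 to 199 CPM in their controls, and fibroblast markers to 1.16 to 2.11 and 5.6 to 127 CPM, and their part in these differences was not tested.

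In knockout libraries Gbp2 rose and none fell (23.7% of all genes were called, 12.2% higher). Gbp2 was at 17.3, 6.42, 21.0, 5.67, 35.2 and 79.5 CPM in KO controls and at 26.9, 16.9, 65.8, 88.9 and 201 CPM with fibrils, so that the groups overlapped. Its log2 fold change was 1.53 ± 0.53 (adjusted p = 0.0361) and it was lost in 10 of 41 alternatives, with an adjusted p of 0.258 without KO fibril 5. An unadjusted p under 0.05 was found for 4 of the 37, Gbp2, Gbp3, Ifi35 and Usp18. None had groups without overlap (4.68% of all genes were wholly higher and 3.41% wholly lower). The change was positive for all but Ifi27l2a, with a median of 0.61 (all genes -0.04). The median was -0.17 without KO fibril 5, 1.34 without KO control 6, and 0.38 and 0.37 without KO control 2 and 4. Without KO control 6, 20 of the 37 were called, all higher, with no share of all genes given for that fit. Leaving out any of KO control 1, 2, 3 or 4 or KO fibril 4 or 5, or all of the 7 libraries, left none, and leaving out KO fibril 1 added Ifi35 and leaving out KO fibril 2 added Gbp3. Ifnb1 stayed at 5, 1, 2 and 0 reads in wild-type and 0, 0, 0, 1 and 3 reads in KO fibril libraries. The wild-type difference from the control reads was called (adjusted p = 0.0435) and was lost in 12 of 40 alternatives, including without wild-type fibril 1 or 3 or any of wild-type controls 2, 3, 5 and 6 and without KO LPS 3.

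LPS and fibrils, which share the controls above, were compared directly. In wild type none of the 37 was called (37.1% of all genes were called), none had an unadjusted p under 0.05 and DESeq2 and limma-voom called none. Higher with fibrils were 17 and lower 20, with a median of -0.02 (all genes -0.04) that ran from -0.16 without wild-type LPS 6 to 0.07 without wild-type LPS 4. Ifih1 was at 156, 202, 174 and 163 CPM with fibrils, wholly below the 203 CPM and above of the LPS libraries (16.2% of all genes were wholly lower and 19.3% wholly higher), with a log2 fold change of -0.69 ± 0.44 (adjusted p = 0.224). Gbp2 gave 0.79 ± 0.55 (adjusted p = 0.266). Without the 7 libraries Ifih1, Ifi44, Oas2 and Oasl1 were called, all lower with fibrils.

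In knockout libraries Usp18 (chr6:121245906-121270917, plus strand), the receptor-binding brake, rose with fibrils relative to LPS and none fell (26.5% of all genes were called, 13.8% higher). Usp18 was at 13.1, 16.6, 29.0 and 16.0 CPM with LPS and at 13.2, 8.92, 60.2, 91.5 and 214 CPM with fibrils. KO fibril 3, 4 and 5 lay above all LPS libraries and KO fibril 2 below them. The log2 fold change was 2.05 ± 0.75 (adjusted p = 0.0424) and the call was lost in 13 of 41 alternatives, with an adjusted p of 0.224 without KO fibril 5, and also without KO LPS 1, 2 or 4 or KO fibril 3 or 4. Of the 37, 8 had an unadjusted p under 0.05. All but Ifi27l2a and Ifitm3 were positive, with a median of 1.05 (all genes 0.02), or 0.22 without KO fibril 5. The number called was 8 without KO control 6, 7 without KO fibril 1 or 2, 3 without KO control 4 (Usp18, Gbp2 and Ifi44), 2 without KO control 2 (Usp18 and Gbp2) and 0 without the 7 libraries. The shares of all genes called in these fits are not given here. None of the 37 had groups without overlap (10.1% of all genes were wholly higher and 10.6% wholly lower).

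Knockout was set against wild type within each treatment. With LPS all 37 genes were lower in knockout, with a median log2 fold change of -1.11 (all genes 0.02, 52.9% of them positive). The same libraries gave 0 positive and 37 negative under TMM, RLE and library size scaling. As the 37 genes move together, this amounts to 1 comparison of libraries and not 37. None was called (1.73% of all genes were called), 3 had an unadjusted p under 0.05 (Parp14, Ifit3b and Rtp4), and DESeq2 and limma-voom called none. When the model held only the compared groups, 23 of the 37 were called, and without the 7 libraries 14 were called, all lower in knockout. Those 7 include wild-type LPS 1 and 6, the lowest of that group in these genes. The share of all genes called under these settings is not given here, so these counts have no background beside them. Parp14 was at 473 to 1068 CPM (median 890) in wild type and at 350, 374, 600.0 and 349 CPM in knockout, a log2 fold change of -0.97 ± 0.41 (adjusted p = 0.223). Ifit3b was at 33.6, 75.3, 79.4, 107, 76.9 and 24.3 CPM in wild type and at 9.79, 10.8, 31.5 and 12.2 CPM in knockout, a log2 fold change of -2.03 ± 0.93 (adjusted p = 0.255). The highest knockout library lay above the lowest wild-type library in both. Oligodendrocyte markers summed to 86.9 to 170.0 CPM in wild-type and 107 to 397 CPM in KO LPS libraries, and microglial markers to 5406 to 6582 and 5655 to 6312 CPM. Markers of border and peripheral macrophages summed to 1346 to 1776 CPM in wild-type and, wholly lower, to 1186 to 1276 CPM in KO LPS libraries. The part of these markers in the difference was not tested.

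Isg15 and Isg20 were the 2 of the 37 whose LPS groups did not overlap, both lower in knockout. This is near the share of all genes, of which 5.21% were wholly lower and 3.08% wholly higher. Isg15, the ubiquitin-like protein, was at 30.3, 78.9, 75.4, 79.6, 77.8 and 47.3 CPM in wild type and at 16.1, 22.8, 30.3 and 15.0 CPM in knockout, the closest values differing beyond the digits shown (log2 fold change -1.62 ± 0.87, adjusted p = 0.335). Isg20 was at 3.63, 8.19, 5.76, 8.59, 5.77 and 3.38 CPM in wild type and at 1.49, 2.39, 3.17 and 1.24 CPM in knockout (-1.50 ± 0.79, adjusted p = 0.326).

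With fibrils none of the 37 was called between genotypes (8.94% of all genes were called), none had an unadjusted p under 0.05, and DESeq2 and limma-voom called none. Higher in knockout were 14 and lower 23, with a median of -0.16 (all genes 0.01). With library size as the only scaling 17 were positive and 20 negative, and the median was -0.06 (all genes 0.16). The median was -0.93 without KO fibril 5, -0.04 without KO fibril 3, and 0.08 and 0.09 without KO fibril 1 and 2. It was -0.08 without KO LPS 3 and -0.25 and -0.09 without wild-type fibril 1 and 2. The mean log2 CPM over the 37, in which KO fibril 5 weighs less, was 5.82 in KO and 6.61 in wild-type fibril libraries. No gene of the 37 had groups without overlap (7.44% of all genes were wholly higher and 7.87% wholly lower). Without the 7 libraries, which include KO fibril 5, the highest of its group, Ifitm3, Oas3 and Slfn5 were called, all lower in knockout. Ifi44 was at 2.58, 3.42, 2.25 and 2.59 CPM in wild type and at 0.714, 0.209, 3.35, 4.39 and 61.2 CPM in knockout, a log2 fold change of 2.35 ± 1.29 (adjusted p = 0.267). Oasl1 was at 4.81, 8.33, 7.17 and 6.29 CPM in wild type, against the knockout values given above, a log2 fold change of 2.06 ± 1.21 (adjusted p = 0.306). In both genes KO fibril 5 was far above every other fibril library and the other knockout libraries lay around or below the wild-type ones. Of the 52 cell type markers tested, 20 were called higher and 1 lower in knockout with fibrils (median log2 fold change 2.66). Microglial markers summed to 4095 to 5456 CPM in KO and 5772 to 6172 CPM in wild-type fibril libraries, and fibroblast markers to 25.4 to 88.6 and 1.16 to 2.11 CPM, with no overlap in either. Their part in the genotype differences with fibrils, here and in the pathway genes, was not tested.

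Averaged over the 3 treatments, Rtp4 (chr16:23520291-23614222, plus strand) fell in knockout and none of the 37 rose (11.2% of all genes were called, 4.14% lower). Rtp4 was at 60.1, 71.5, 99.2 and 62.2 CPM in KO LPS, 37, 29.2, 104, 155 and 179 CPM in KO fibril, 85.8 to 193 CPM (median 176) in wild-type LPS and 146, 177, 159 and 162 CPM in wild-type fibril libraries. Its log2 fold change was -0.85 ± 0.28 (adjusted p = 0.0467), a call lost in 24 of 39 alternatives (adjusted p from 0.00501 to 0.0861), among them 23 of the 30 fits that leave out a library. All but Oasl1 and Ifi44 were negative, with a median of -0.52 (all genes 0) or -0.81 without KO control 6, and 8 of the 37 had an unadjusted p under 0.05. Leaving out KO control 6 gave 15 calls and leaving out KO fibril 5 gave 11, while 36 were called without the 7 libraries, all lower in knockout. Those 7 include the highest KO control and KO fibril libraries and the lowest wild-type control and LPS libraries. The shares of all genes called in these fits are not given here, so these counts have no background beside them. Of the 52 cell type markers, 18 were called higher and 4 lower in knockout in this comparison (median log2 fold change 1.04), and their part in it was not tested.

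**Figure D5:**
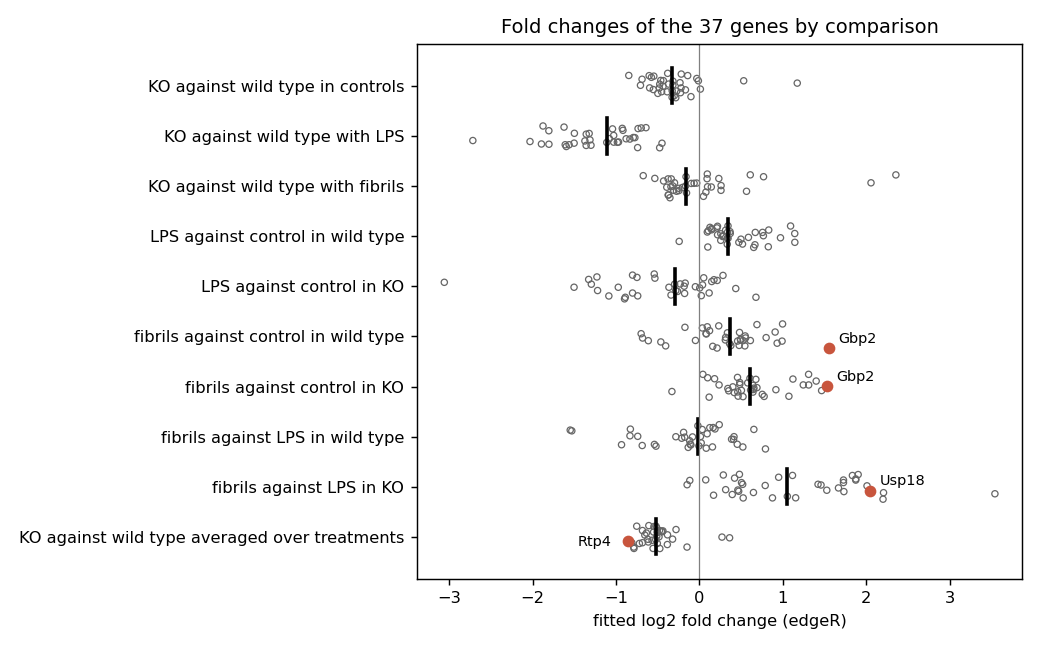
Log2 fold change of each of the 37 genes (points) in 10 comparisons (rows), with a bar at the median of the 37 and called genes as filled points. The filled points are Gbp2 with fibrils in each genotype, Usp18 with fibrils against LPS in knockout and Rtp4 averaged over treatments, and with LPS all 37 points lie below 0 between the genotypes.

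The difference of each response between genotypes was also tested. For LPS none of the 37 was called and no gene at all was (0% of 14346), with 600 genes and 1 of the 37 at an unadjusted p under 0.05. The median over the 37 was -0.76, or 0.08 without KO control 6. Ifi44 gave -3.89 ± 1.73 and Ifit3b -1.76 ± 1.20 (adjusted p = 0.992 each). For fibrils none of the 37 was called, again with 0% of all genes, 1667 genes and none of the 37 at an unadjusted p under 0.05, and DESeq2 and limma-voom called none of the 37 in either response. Their median was 0.25, or 1.13 without KO control 6 and -0.56 without KO fibril 5, and it was between 0.04 and 0.52 without KO control 1, 2, 3 or 4, KO fibril 1, 2 or 4, wild-type control 5 or 6 or wild-type fibril 1. Oasl1 gave 1.52 ± 1.55 (adjusted p = 0.738) and Oas2 0.72 ± 0.94 (adjusted p = 0.804), with Oas2 at 37.7, 42, 37.7 and 32.6 CPM in wild-type and 11.6, 7.41, 24.0, 37.7 and 144 CPM in KO fibril libraries.

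The inducers, receptors and signalling genes of the pathway were read from a list of 33, of which 31 were tested. With LPS 9 of the 31 rose and 1 fell in wild type (7.1% of all genes rose and 8.03% fell), and 8 rose and 1 fell in knockout (6.36% and 7.35%). The genes that fell were Tlr4 in wild type and Ptpn6, a phosphatase, in knockout. Socs3, a feedback inhibitor of Jak kinases, rose by 6.12 ± 0.43 in wild type and 5.83 ± 0.40 in knockout, from 5.12 to 12.1 CPM in wild-type controls to 395 to 771 CPM with LPS. Irf1, a transcription factor that activates interferon genes, rose by 2.25 ± 0.24 and 2.95 ± 0.24, and Ticam1, the Toll-like receptor adaptor that leads to Ifnb1, by 1.21 ± 0.16 and 0.81 ± 0.17. Ifnar1, a subunit of the interferon-β receptor, rose by 0.37 ± 0.10 in wild type and 0.38 ± 0.10 in knockout. Jak2 rose in wild type by 0.95 ± 0.18.

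With fibrils 10 pathway genes rose and 1 fell in wild type (13.8% and 15.6% of all genes did), and 8 rose and 4 fell in knockout (12.2% and 11.5%). Socs3 rose by 2.37 ± 0.39 in wild type, to 34.6 to 43.1 CPM, and by 3.70 ± 0.36 in knockout, to 33.4 to 233 CPM. Irf1 rose by 0.73 ± 0.24 in wild type, and Tbk1, a kinase that activates Irf3, by 0.44 ± 0.09 in wild type and 0.34 ± 0.08 in knockout. Tlr9, the receptor for unmethylated DNA, fell by 1.61 on the log2 scale in wild type, from 17.2 to 39.1 CPM in controls to 8.42 to 11.2 CPM. In knockout the genes that fell were Tlr4, the LPS receptor (by 0.59 on the log2 scale), Irf8, Ifngr1 and Tlr9. Between genotypes with fibrils, where 5.27% of all genes were higher and 3.67% lower in knockout, 1 rose, Socs3 (1.52 ± 0.38, adjusted p = 0.0173), and 3 fell in knockout, Tlr4 (-0.51 ± 0.11, adjusted p = 0.00983), Irf1 (-0.98 ± 0.24, adjusted p = 0.0166) and Ifngr1 (-0.44 ± 0.14, adjusted p = 0.0446, lost in 21 alternatives). In the same comparison 20 of the 52 cell type markers were called higher in knockout, with the summed levels given above. In controls and with LPS none of the 31 was called between genotypes, and averaged over treatments Irf9 fell in knockout (-0.36 ± 0.11, adjusted p = 0.0412), a call lost in 25 of 39 alternatives.

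A further 40 interferon-inducible genes were listed, of which 39 were tested. With LPS 3 rose and none fell in each genotype (7.1% of all genes rose in wild type and 6.36% in knockout), namely Slfn2, a Schlafen protein of immune cell quiescence, the chemokine gene Cxcl10 and Ifi207, a relative of Ifi204. Slfn2 rose from 343 to 474 CPM to 831 to 1241 CPM in wild type (1.44 ± 0.12) and from 267 to 425 CPM to 922 to 1208 CPM in knockout (1.65 ± 0.13). Cxcl10 rose by 3.02 ± 0.62 in wild type, to 185 to 338 CPM, and by 3.14 ± 0.61 in knockout, to 146 to 205 CPM. With fibrils 1 rose in wild type, Slfn2 (0.79 ± 0.13), where 13.8% of all genes rose. In knockout 3 rose with fibrils, Slfn2 (0.76 ± 0.12), Cxcl10 (2.23 ± 0.58) and Gbp5 (2.20 ± 0.70), where 12.2% of all genes rose. Cxcl10 in KO fibril libraries ran from 7.58 to 274 CPM. Without KO fibril 5 neither Cxcl10 (1.29) nor Gbp5 (0.86) was called. The Cxcl10 call was lost in 4 of 41 alternatives (adjusted p from 0.000688 to 0.108). The Gbp5 call was lost in 5 of 41 (adjusted p from 0.000253 to 0.361), among them without KO control 2. Gbp5 was at 3.52 without KO control 6. Averaged over treatments 1 of the 39, Tor3a, fell in knockout (-0.61 ± 0.18, adjusted p = 0.0331, lost in 9 alternatives), where 4.14% of all genes fell.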

How the data were processed

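The deposited table holds estimated counts per Ensembl transcript for 30 libraries of stranded, ribosomal RNA-depleted total RNA read as 100-bp single ends, stored by the authors as whole numbers without normalization. Base calling with CASAVA 1.7.1, alignment with STAR 2.4.2a and the mm10 build come from the submitters' processing notes, while the program that assigned reads to transcripts is not given in those notes. The labels state pools of 4 libraries without naming which libraries shared a pool. Counts were summed to genes with GENCODE M21, which matched 91320 of 94647 transcripts (the 3327 unmatched ones held 0.779% to 0.891% of a library's counts and were left out), giving 38031 genes, 25899 of them with a count.

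Genes passing edgeR's expression filter (14346) were scaled by TMM (factors 0.827 to 1.14) and fitted in edgeR 4.0.16 (R 4.3.3) with a mean per group, 24 residual degrees of freedom and a common biological coefficient of variation of 0.294. Quasi-likelihood tests were adjusted by Benjamini-Hochberg over all tested genes. Log2 CPM used a prior count of 2, and folds between libraries are differences on that scale. Annotation positions are in mm10. Reads shared between gene copies were checked as 100-base stretches of each gene's most counted transcript that also occur in transcripts of another gene.

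The 37 genes, the lists and the tests were chosen with earlier results of these data known. Genes were named by a rule: in each role the gene with the highest mean and the one with the smallest p, in each comparison the called genes or the 2 with the smallest p, and always Ifnb1, Irf7, Irf9 and Lrrk2. A gene that the rule names is not reported here. The 12 genes most alike were ranked by the Pearson correlation of within-group deviations, leaving out genes named only by number. Other genes named were singled out after their values were seen or stand behind small counts. Promoters were printed for the 4 genes with the core and the largest spread. Alternatives were RLE or library size scaling, other filters, limma-voom (limma 3.58.1), DESeq2 1.42.0, replicate number as a block, models of the compared groups alone, and each library left out in turn. Another 2 were chosen after seeing the data, namely leaving out 7 libraries and limma-voom with a variance weight per group. The steps were tested on simulated data.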

Additional observations from a re-analysis of the deposited data

Results flagged for a closer look

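Dixon's test was used to search groups of 4 to 6 libraries for a library far from the rest of its group. It was run on the genes of the 37 named by the rule, the pathway genes always named and the mean over the 37. The test flags about 1 in 20 groups by chance, and 3 of 132 sets were flagged. Ifnb1 in wild-type control 1 was at a log2 CPM of -3.02 against -3.42 for the nearest other library, a gap that stands for 1 read against 0. Oas2, an enzyme of the 2-5A system, was at 5.28 in KO LPS 3 against 4.50 for the next library. Parp14 was at 9.23 in KO LPS 3 against 8.55 for the next library. The last 2 lie in the library that was the highest of its group for 33 of the 37 genes.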

How the results depend on the processing

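The values below, given without the share of all genes called under each setting, are the number of the 37 genes called. With library size as the only scaling it was 0 for fibrils in wild type and 2 for fibrils against LPS in knockout. With no filter it was 0 for fibrils in wild type, 0 for fibrils in knockout, 0 for fibrils against LPS in knockout and 0 averaged over treatments. With only the compared groups in the model it was 23 for knockout against wild type with LPS, 3 for LPS in wild type, 9 for fibrils in wild type (8 higher, 1 lower), 0 for fibrils in knockout, 8 for fibrils against LPS in wild type (2 higher, 6 lower) and 0 in knockout. With limma-voom it was 1 for LPS in wild type, 0 for fibrils against LPS in knockout and 7 averaged over treatments. With DESeq2 it was 1 for LPS in wild type and 6 for fibrils against LPS in knockout. With the variance weight per group, chosen after seeing the data, it was 1 for LPS in wild type, 0 for fibrils in knockout, 3 for fibrils against LPS in wild type (1 higher, 2 lower), 0 for fibrils against LPS in knockout and 32 averaged over treatments. Without the 7 libraries, also chosen after seeing the data, it was 14 for knockout against wild type with LPS, 3 with fibrils, 2 for LPS in wild type, 0 for fibrils in knockout, 4 for fibrils against LPS in wild type, 0 in knockout and 36 averaged over treatments, and the SD of the mean over the 37 genes in wild-type LPS libraries was 0.153. Leaving out each library in turn gave 0 to 1 for LPS in wild type, 0 to 1 for LPS in knockout, 0 to 1 for fibrils in wild type, 0 to 20 for fibrils in knockout, 0 to 8 for fibrils against LPS in knockout and 0 to 15 averaged over treatments, and 0 in each of the other 6 comparisons. The SD of the mean over the 37 genes then ran from 0.4 to 0.635 in wild-type control, 0.541 to 0.69 in wild-type LPS, 0.138 to 0.242 in wild-type fibril, 1.08 to 1.74 in KO control, 0.209 to 0.462 in KO LPS and 1.29 to 1.96 in KO fibril libraries. Whether the replicate numbers pair the samples is not known. No pair of groups with 3 or more shared numbers had every same-number correlation over 0.1. Between wild-type control and wild-type LPS libraries 4 of 5 were over 0.1 (0.004 to 0.655), and in 3 the own number correlated best. Between wild-type control and wild-type fibril libraries 0 of 3 were over 0.1. With the replicate block the number called was 1 for LPS in wild type, 0 for fibrils against LPS in knockout and 4 averaged over treatments. With the replicate block within genotype it was 1 for LPS in wild type and 0 for fibrils against LPS in knockout. It was then 8 for LPS in knockout (all higher) and 19 for fibrils in knockout (all higher). The cause of these changes was not tested. The 125 named results include pathway genes and other interferon-inducible genes. Of the 125, 67 were called, and 43 of these were called under every alternative, while 24 lost the call at least once. No call among the 37 was kept under every alternative. Gbp2 lost it in 16 (wild type) and 10 (knockout), Usp18 in 13 and Rtp4 in 24. No called result changed sign. Ifi44 (2.07) and Oasl1 (1.80), both with low counts, had the largest SD between libraries of a group among the 37.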
